A study of Mus musculus with 14 samples.

Results

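The transcripts described here are those of the mouse mitochondrial genome, taken as every gene symbol of the deposited gene matrix that begins with mt-. The rule found 37 of 52459 symbols, namely 13 protein genes, 2 ribosomal RNA (rRNA) genes and 22 transfer RNA (tRNA) genes. The 13 protein genes and the 2 rRNA genes passed the filter on low counts, as did 8 of the 22 tRNA genes, so that 23 members were tested. The members held 5.91% to 8.31% of the estimated counts of a library.

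RNA was profiled in 14 libraries of primary cortical neurons cultured from E16.5 mouse embryos. The mice carried the knock-in allele S1382E (Brg1-SE), serine to glutamate, or S1382A (Brg1-SA), serine to alanine, of BRG1, an ATPase that remodels chromatin as part of the BAF complex, or were wild-type littermates of one or the other. On day 5 in vitro the neurons of all 14 libraries received 1 µM tetrodotoxin and 100 µM APV. These silence neurons by blocking sodium channels and NMDA receptors. The neurons of 7 libraries were depolarised on day 6 with 50 mM KCl for 1 h. A mutant and its littermates are called a line, and a KCl library and a basal library of the same genotype and replicate number are called a culture, although the labels do not say that they share one. The SE line gave 2 SE cultures and 1 wild-type culture, and the SA line gave 2 SA cultures and 2 wild-type cultures. The 8 groups were thus SE after KCl (2 libraries), its wild type after KCl (1 library), SE at basal (2 libraries), its wild type at basal (1 library), SA after KCl, its wild type after KCl, SA at basal and its wild type at basal (2 libraries each). The sources used here do not give strain background, sex or the number of embryos per culture, and p-values measure the spread between these libraries, which may be technical. The libraries were of nearly equal depth, with 22625916 to 23096206 estimated counts. SA-line wild-type culture 1 stood apart in both libraries in Slc17a7, the vesicular glutamate transporter of excitatory neurons. It had 24.4 CPM there after KCl and 24.7 CPM at basal, against 266 to 374 CPM in the other 6 SA-line libraries. Neurod6, another neuron marker, was instead highest there among the SA-line libraries of each condition. It had 287 CPM after KCl, against 187 to 253 CPM in the others, and 252 CPM at basal, against 113 to 173 CPM. The response to KCl was present in both lines, since all 10 immediate early genes listed rose in each.

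The mitochondrial genome is a small circle that is transcribed from both strands into long precursor RNAs. tRNAs lie between most of the other genes, and their excision releases the rRNAs and messenger RNAs. All of its protein products are subunits of the respiratory chain or of ATP synthase, on which neurons depend for the energy that ion pumping uses after depolarisation. Most genes are read from one strand, annotated as the plus strand, while mt-Nd6 and 8 tRNA genes are annotated on the minus strand.

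A stretch of nuclear chromosome 1 holds a set of near-identical copies of mitochondrial genes, which bears on every value of the genes concerned. In GENCODE M21 (GRCm38), 7 unprocessed pseudogenes on the minus strand, between chr1:24611535 and chr1:24616197, shared at least 90% of their 31-base words with a mitochondrial gene. They were copies of mt-Nd4, mt-Nd4l, mt-Nd3, mt-Co3, mt-Atp6, mt-Co2 and mt-Co1. Reads from such a pair cannot be told apart where the sequences are equal, and kallisto, the program the submitters used, splits them by a statistical model. The copies held another 0.736% to 1.32% of a library's counts. The mt-Nd3 pair is shown because its split differed most between libraries. The copy lacks the last 3 of the 348 bases of mt-Nd3. Over the 345 aligned bases the pair differs at 1, T3C counted from the first base of the mitochondrial transcript, which is chrM:9461. That base stands in capitals in the first 60 bases of each member (chrM:9459-9518, plus strand, and chr1:24613060-24613119, minus strand).
mt-Nd3: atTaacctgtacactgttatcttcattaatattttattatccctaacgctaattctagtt
Gm28438: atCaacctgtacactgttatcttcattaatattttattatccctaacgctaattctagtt

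The mt-Co2 pair is shown as a case with no substitution at all. Over its 681 aligned bases the copy is identical to mt-Co2 and lacks only the last 3 bases, which stand in capitals (chrM:7664-7696, plus strand, and chr1:24614885-24614914, minus strand).
mt-Co2: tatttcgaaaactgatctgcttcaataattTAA
Gm28661: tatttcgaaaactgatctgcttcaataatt

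The mt-Co1 copy covers the last 492 of the 1545 bases of mt-Co1 and differs from it only at its own start. All 6 substitutions, T1056A, C1057T, A1059G, A1060G, C1062A and A1066T, are in capitals (chrM:6381-6430, plus strand, and chr1:24616148-24616197, minus strand).
mt-Co1: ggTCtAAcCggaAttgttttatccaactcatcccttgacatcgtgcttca
Gm29216: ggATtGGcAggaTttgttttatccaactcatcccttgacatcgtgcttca

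The split of the mt-Nd3 pair fell into separate ranges that did not follow genotype or KCl. mt-Nd3 encodes a small subunit of complex I, which takes electrons from NADH. In the SE line, mt-Nd3 was given 10.6%, 9.88% and 13.03% of the pair's counts after KCl (SE culture 1, SE culture 2 and the wild-type culture), against 10.4%, 7.61% and 9.12% at basal. In the SA line it was given 46.3% and 36.4% in SA libraries after KCl, against 8.66% and 41.4% in their wild type. The corresponding basal values of the SA line were 35.6% and 45.5% in SA libraries, against 7.01% and 52.3% in wild type. Thus 6 of the 8 SA-line libraries lay between 35.6% and 52.3%, while SA-line wild-type culture 1 lay, in its KCl and its basal library, within 7.01% to 8.66%, next to the 6 SE-line libraries. The summed pair had 5955 to 13324 counts in SE-line libraries, 9196 to 11693 in SA-line wild-type culture 1 and 9771 to 12658 in the other 6 SA-line libraries. The letters of the reads were not used here, so whether the libraries differ at chrM:9461 was not tested.

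**Figure D1:**
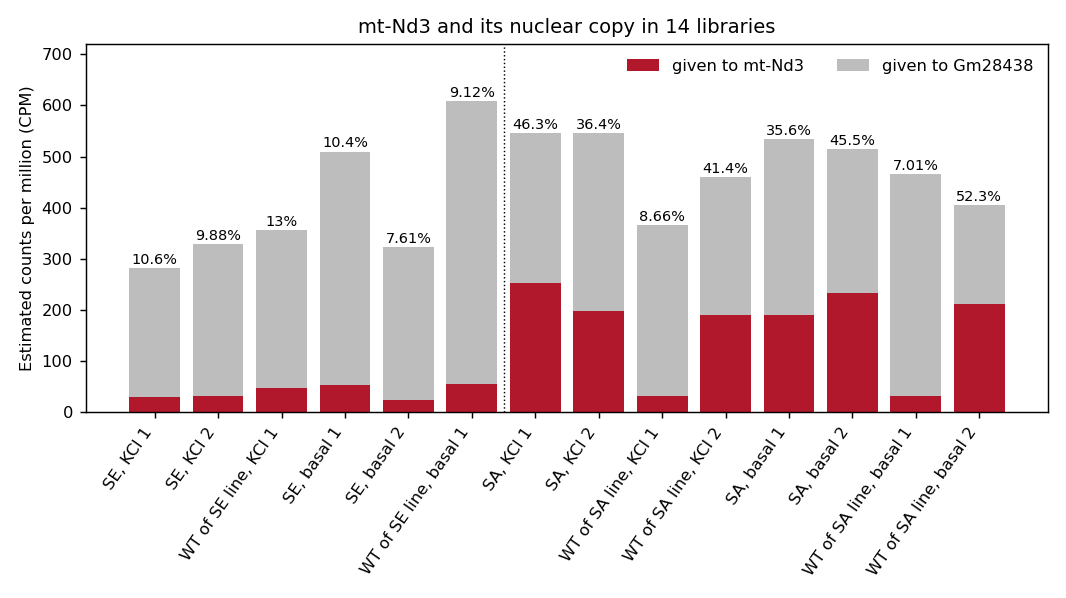
CPM (vertical axis, estimated counts scaled by edgeR's TMM factors and library total) given to mt-Nd3 (red) and to its nuclear copy Gm28438 (grey) in each of the 14 libraries, with the percentage given to mt-Nd3 above each bar. The 6 SE-line libraries and SA-line wild-type (WT) culture 1 lie at 7.01% to 13.03%, and the other 6 SA-line libraries at 35.6% to 52.3%.

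The other pairs were split differently. mt-Co2, the subunit of cytochrome c oxidase (complex IV) that receives electrons from cytochrome c, was given 19.0% to 39.1% of its pair over the 14 libraries. mt-Co3, a core subunit of the same enzyme, was given 59.0% to 83.3%, and its catalytic subunit mt-Co1 89.4% to 92.5%. mt-Atp6, a membrane subunit of ATP synthase (complex V), held nearly all of its pair in every library (99.95% to 100%), although its copy is identical over 678 bases. The copies of mt-Nd4 and mt-Nd4l were given 0 counts in all 14 libraries. Values with the copy's counts added to the gene are named as such below, and shares, counts of calls and all other values are as deposited.

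Per length, the complex IV genes and mt-Atp6 stood highest, and complex I genes ranged widely. TPM (counts divided by effective length and scaled to a fixed sum per library) of the gene, with the counts of its copy added, averaged 31259 ± 2806 for mt-Co2, 29473 ± 4102 for mt-Atp6, 28645 ± 2066 for mt-Co1 and 28087 ± 3419 for mt-Co3 (SD, n = 14 libraries). The order of these 4 was not fixed, since each was higher than the next in only 9 or 10 of 14 libraries. mt-Nd1 at 17533 ± 1617 TPM and mt-Cytb at 16693 ± 1715 TPM followed. mt-Nd1 encodes a membrane subunit of complex I, and mt-Cytb the cytochrome b of complex III. mt-Nd4 (14629 ± 2105 TPM), mt-Atp8 (13924 ± 2104 TPM) and mt-Nd4l (12923 ± 1996 TPM) came next and exchanged places between libraries. Effective lengths were short for mt-Atp8 (41.5 to 48.2 bases) and mt-Nd4l (101 to 116 bases), so that their TPM depends strongly on how that length was estimated. mt-Nd2 (8906 ± 1564 TPM), mt-Nd5 (6605 ± 1548 TPM) and mt-Nd6 (5160 ± 994 TPM), all membrane subunits of complex I, kept their order in all 14 libraries. mt-Nd3 was the lowest protein gene at 4657 ± 1168 TPM, and as deposited, without its copy, it averaged 1219 TPM. The rRNA of the large mitochondrial ribosomal subunit, mt-Rnr2, stood at 3370 ± 342 TPM and that of the small subunit, mt-Rnr1, at 2249 ± 335 TPM. Both rRNAs lay below all protein genes in the mean, and the sources used here do not say whether the kit selected polyadenylated RNA or depleted rRNA.

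**Figure D2:**
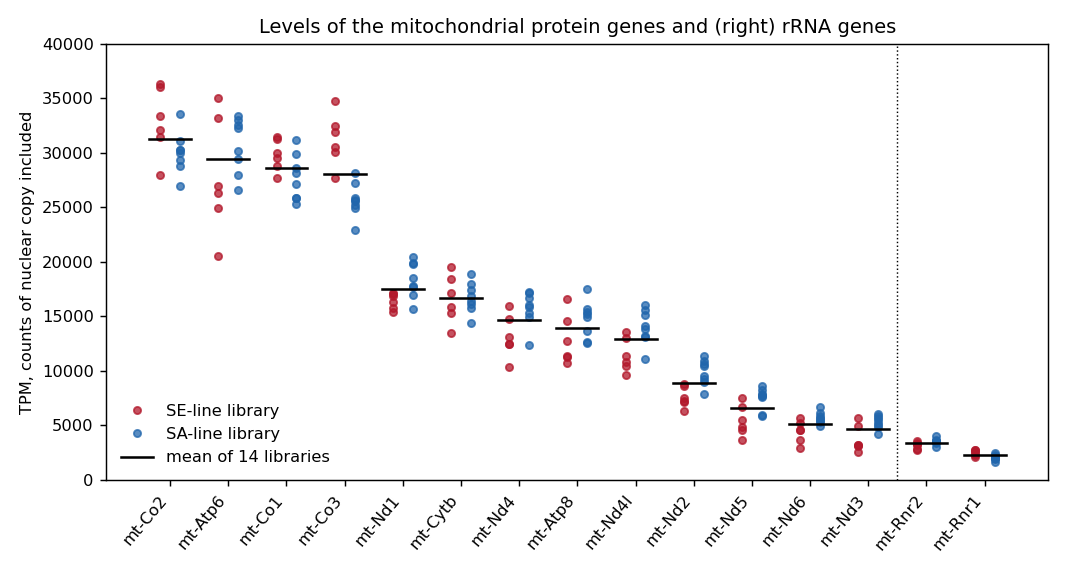
TPM (vertical axis) of the 13 protein genes and 2 rRNA genes, with the nuclear copy's counts added to its gene. Points are libraries of the SE line (red) and SA line (blue), and bars are means over 14 libraries, from 31259 TPM for mt-Co2 to 2249 TPM for mt-Rnr1.

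The mitochondrial share of a library's counts was lower after KCl in each SE-line culture, and differed in no fixed direction in the SA line. In the SE line it was 5.91%, 6.78% and 6.90% after KCl (SE culture 1, SE culture 2 and the wild-type culture), against 7.72%, 7.35% and 8.31% at basal. The libraries did not overlap. The means were 6.53 ± 0.540% after KCl and 7.80 ± 0.487% at basal (SD, n = 3 each), a difference of -1.27 percentage points with p = 0.1 in a two-sided exact permutation test, which is the smallest p this design allows. In the SA line the share after KCl was 8.24% and 7.52% in SA libraries and 6.47% and 7.96% in wild type, and at basal it was 7.05% and 7.95% in SA libraries and 7.37% and 6.76% in wild type. These ranges overlapped, with means of 7.55 ± 0.778% after KCl and 7.29 ± 0.510% at basal (SD, n = 4 each) and p = 0.6 in the same exact permutation test. Over 16 such tests, of 4 classes in 4 comparisons, the lowest adjusted p was 0.522. In such bulk samples, fewer mitochondria-rich cells and less mitochondrial RNA per cell cannot be told apart.

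By class, protein genes carried nearly all of this share. In the SE line the protein genes held 6.21 ± 0.495% after KCl and 7.46 ± 0.459% at basal (SD, n = 3 each), with p = 0.1 in the exact permutation test. The rRNA genes held 0.315 ± 0.0473% after KCl and 0.334 ± 0.0305% at basal, and these ranges overlapped (exact permutation p = 0.7). The tRNA genes held 0.00277 ± 0.000407% after KCl and 0.00374 ± 0.000743% at basal, and these too overlapped (exact permutation p = 0.2). Between lines, the share of all members was 6.53 ± 0.540% in the SE line and 7.55 ± 0.778% in the SA line after KCl (exact permutation p = 0.171). At basal it was 7.80 ± 0.487% in the SE line and 7.29 ± 0.510% in the SA line (exact permutation p = 0.286). These comparisons of 3 against 4 libraries cannot give a p under 0.0571.

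**Figure D3:**
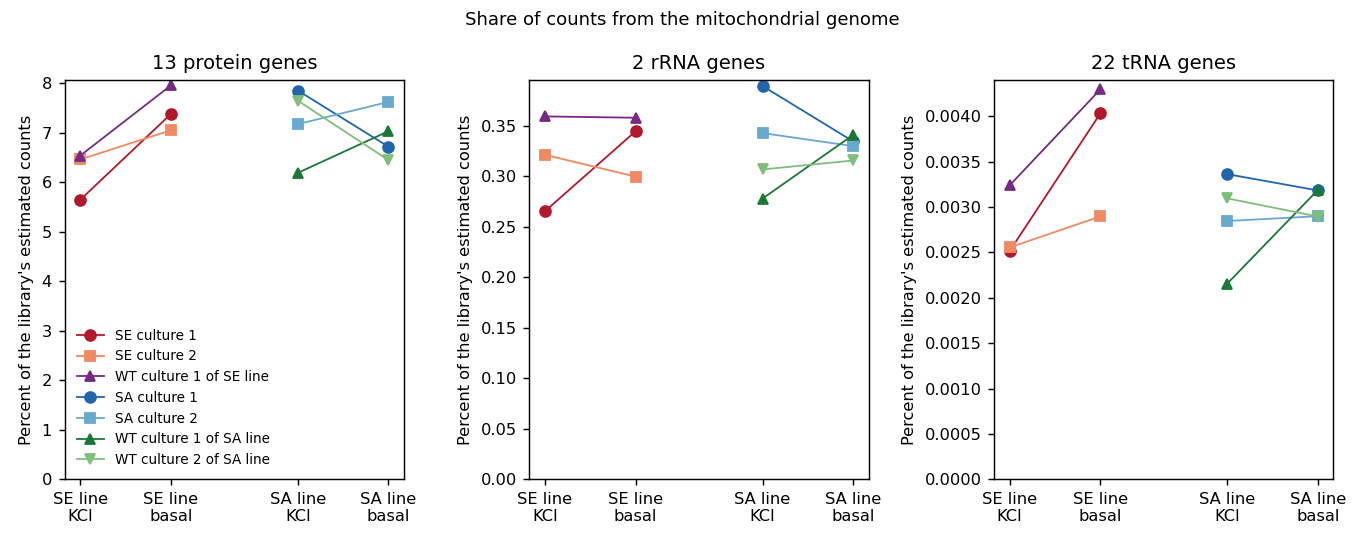
Percent of a library's estimated counts (vertical axis, from 0) held by the protein, rRNA and tRNA genes, with lines joining the KCl and the basal library of a culture. The protein share is lower after KCl in the 3 SE-line cultures, whose KCl libraries reach 6.53% at most while the basal ones start at 7.05%, and the 4 SA-line cultures cross.

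Gene by gene, no member was called between KCl and basal libraries of the SE line, although most protein genes were lower after KCl. Calls were made with edgeR's quasi-likelihood test at an adjusted p under 0.05 over the 17732 genes tested, and 2.81% of these were called, 1.82% higher and 0.998% lower. Of the 23 members tested 0 were called, 4 had an unadjusted p under 0.05 and DESeq2 called 1. Over all 17732 genes tested, 2041 had an unadjusted p under 0.05. With copies added, 12 of 13 protein genes had a lower level after KCl, with a median log2 fold change of -0.26 against 0.013 over all genes tested as deposited. The value after ± beside a log2 fold change is the standard error of the model.

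mt-Nd5, the last complex I gene on the plus strand, had the largest difference in the SE line. In CPM (estimated counts scaled by library total and edgeR's TMM factor), its level was 3297, 4148 and 4457 CPM after KCl (SE culture 1, SE culture 2 and the wild-type culture), against 6102, 5152 and 6990 CPM at basal. Every KCl library lay below every basal one. The log2 fold change was -0.61 ± 0.18, with an adjusted p of 0.138. mt-Nd6, the complex I gene of the other strand, had 510, 620 and 817 CPM after KCl, against 886, 795 and 1008 CPM at basal. Each culture was lower after KCl, but the wild-type KCl library exceeded the basal library of SE culture 2. Its log2 fold change was -0.48 ± 0.15 (adjusted p = 0.183).

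mt-Atp6 had 5276, 6265 and 6863 CPM after KCl, against 8323, 6967 and 9082 CPM at basal. mt-Cytb had 7248, 8549 and 8421 CPM after KCl, against 9956, 9439 and 10821 CPM at basal. For both, each KCl library lay below each basal one. The same held for mt-Nd4, mt-Nd4l and, with copies added, mt-Co1, mt-Co2 and mt-Co3, which made 8 of 13 protein genes with mt-Nd5. By this rule of no overlap, 13.1% of all genes tested were lower and 14.1% higher after KCl in the SE line. mt-Nd1 stood apart from these, at 6339, 6973 and 7078 CPM after KCl, against 6648, 6564 and 7050 CPM at basal, with a mean log2 change per culture of 0.0081.

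Some alternatives called members in the SE line, where calls over all genes could also rise, and the cause was not tested. Over all genes, the fit of that line alone called 1638, against 499 in the fit of all 14 libraries. A fit of the 6 SE-line libraries alone called 7 members, all lower after KCl: mt-Nd5 (adjusted p = 0.000281), mt-Nd6 (0.0015), mt-Atp6 (0.00668), mt-Cytb (0.0188), mt-Nd4 (0.0206), mt-Tp (0.0218) and mt-Nd4l (0.046), by edgeR's adjusted p. DESeq2 called mt-Nd5 alone (adjusted p = 0.022). With the culture as a block, edgeR called mt-Nd5 (adjusted p = 0.00153), mt-Nd6 (0.0159) and mt-Atp6 (0.0324), and 1771 genes over all. With SA-line wild-type culture 1 left out, edgeR called mt-Nd5 (0.0149) and mt-Nd6 (0.0291).

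Within the SE line the change also differed along the genome. With copies added, the median change of the 13 protein genes was -0.45 in SE culture 1, -0.11 in SE culture 2 and -0.30 in the wild-type culture on the log2 scale. In each of them mt-Nd1, next to the rRNA genes, had the highest value of the 13 genes, at -0.069, 0.087 and 0.0058. mt-Nd5, near the far end of the plus strand, stood at -0.89, -0.31 and -0.65. The ends of the strand differed less. mt-Cytb, the last protein gene of that strand, stood at -0.46, -0.14 and -0.36, and mt-Rnr1, the first rRNA gene, at -0.39, 0.040 and -0.038. Across the 14 rRNA and protein genes of the plus strand, the fitted log2 change in the SE line correlated with position at r = -0.72 (Spearman's rho = -0.80), and as deposited at r = -0.64 (rho = -0.78). Within cultures r was -0.51 in SE culture 1, -0.78 in SE culture 2 and -0.74 in the wild-type culture. In the SA line it was 0.0049 (rho = -0.19), and its cultures ranged from -0.52 to 0.32. These are descriptions across genes that share libraries and precursor RNAs and are not independent, and no test was made.

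**Figure D4:**
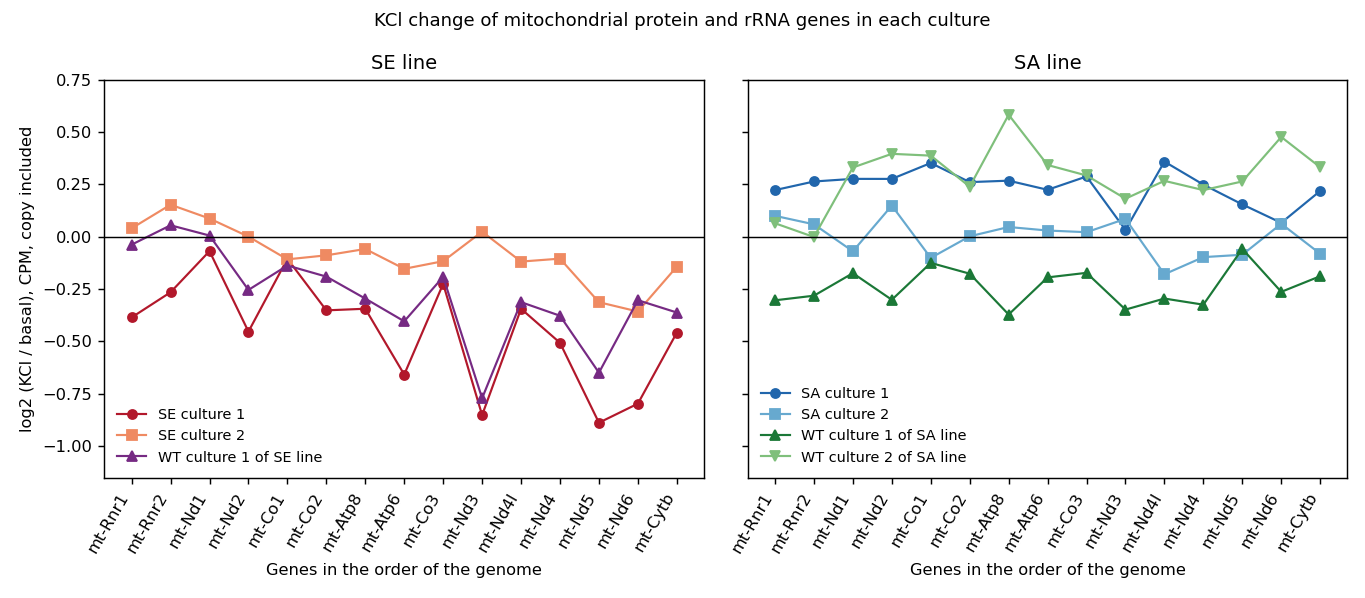
log2 ratio of KCl to basal CPM (vertical axis, copies added) for each protein and rRNA gene in the order of the genome, with 1 line per culture of the SE line (left) and of the SA line (right). In the SE line mt-Nd1 lies at -0.069 to 0.087 and mt-Nd5 at -0.89 to -0.31, and the 4 SA-line cultures lie on both sides of 0.

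In the SA line the cultures went opposite ways. After KCl all 13 protein genes were higher in SA culture 1 (median log2 change 0.26) and in wild-type culture 2 (0.33), all 13 were lower in wild-type culture 1 (-0.19), and 7 were higher and 6 lower in SA culture 2 (0.0022). mt-Nd5 had 7093 and 6643 CPM in SA libraries and 4599 and 7068 CPM in wild type after KCl, and at basal it had 6372 and 7050 CPM in SA libraries and 4787 and 5886 CPM in wild type. mt-Nd2, another complex I gene, had 4636 and 4780 CPM in SA libraries and 2958 and 4353 CPM in wild type after KCl, and at basal 3828 and 4311 CPM in SA libraries and 3644 and 3308 CPM in wild type. Both genes overlapped between KCl and basal. Of the 23 members 0 were called by edgeR, 0 had an unadjusted p under 0.05 and DESeq2 called 0, while 2.02% of all genes tested were called, 1.38% higher and 0.649% lower. An unadjusted p under 0.05 was found for 1427 of the 17732 genes tested. No protein or rRNA gene was without overlap, where 2.46% of all genes were lower and 2.92% higher in that way.

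The difference in KCl response between the lines was tested directly. With copies added, all 13 protein genes had a lower KCl response in the SE line than in the SA line, with a median difference of -0.37 on the log2 scale. edgeR called 0 of 23 members, 3 had an unadjusted p under 0.05, DESeq2 called 0, and 0.152% of all genes tested were called, 0.135% higher and 0.0169% lower. Of the 17732 genes tested, 546 had an unadjusted p under 0.05. The most negative protein genes were mt-Nd5 at -0.69 ± 0.23 and mt-Nd6 at -0.58 ± 0.20, with an adjusted p of 1.00 for each. With the culture as a block, edgeR called mt-Nd5 (adjusted p = 0.0333), and 146 genes over all.

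Neither mutation of BRG1 was called to change a mitochondrial transcript against its littermates. After KCl, edgeR called 0 of 23 members in SE against wild type, where 1 had an unadjusted p under 0.05, and 0 of 23 in SA against wild type, where 3 did. At basal it also called 0 in each, with 0 below that unadjusted p in SE and 1 in SA. Over the 17732 genes tested, 240 in SE and 2040 in SA were below it after KCl, and 187 and 1279 at basal. DESeq2 called 0 members in all 4 of these comparisons, and edgeR called 0% of all genes tested. The SE comparison sets 2 libraries against 1, whose spread was taken from the other groups.

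The signs ran together within a comparison, but the 13 genes share libraries, and most share precursor RNAs, so that they are not independent. The same holds for the counts of protein genes by sign in the other comparisons. With copies added, all 13 protein genes were lower in SE than in its single wild-type library, with a median log2 fold change of -0.14 after KCl and -0.20 at basal. All 13 were higher in SA than in its wild type, with a median of 0.24 after KCl and 0.18 at basal. The SA value after KCl rested on wild-type culture 1, since the median as deposited was 0.24 and was 0.017 without the KCl library of that culture. The 2 rRNA genes were among the 3 members with an unadjusted p under 0.05 there, where 2040 of the 17732 genes tested had one. mt-Rnr1 had 1017 and 841 CPM in SA libraries after KCl, against 588 and 709 CPM in wild type, and mt-Rnr2 had 2941 and 2533 CPM in SA libraries, against 1947 and 2283 CPM in wild type. The log2 fold changes were 0.52 for mt-Rnr1 (adjusted p = 0.335) and 0.37 for mt-Rnr2 (adjusted p = 0.399), and neither gene was called.

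The KCl responses of SA and SE were also tested against those of their wild types. edgeR called 0 of 23 members for SA minus wild type and 0 for SE minus wild type, 0 had an unadjusted p under 0.05 in each, DESeq2 called 0, and edgeR called 0% of all genes tested. That unadjusted p was reached by 122 of the 17732 genes tested for SA and 159 for SE. The median difference over the protein genes as deposited was 0.039 for SA and 0.053 for SE. With SA-line wild-type culture 1 left out the SA value was -0.22.

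Between the lines themselves a few members differed in level, a smaller share than that of all genes, and that difference in share was not tested. At basal, edgeR called 4 of 23 members, 3 higher and 1 lower in the SE line, while 47.8% of all genes tested were called, 21.8% higher and 26.0% lower. After KCl it called 5, 1 higher and 4 lower, while 50.0% of all genes were called, 23.2% higher and 26.8% lower. With copies added, 4 of 13 protein genes (mt-Co1, mt-Co2, mt-Co3 and mt-Cytb) and mt-Rnr1 lay higher in the SE line at basal with no overlap and 0 lower, against 26.9% of all genes higher and 27.7% lower. After KCl, mt-Co3 lay higher and mt-Nd3 and mt-Nd5 lower with no overlap, against 27.6% of all genes higher and 28.2% lower. With SE culture 1 left out, log2 fold changes of the SE line over the SA line after KCl were -0.32 for mt-Nd2, -0.55 for mt-Nd5 and -0.39 for mt-Nd6. mt-Nd3 stood at -2.09 and mt-Rnr1 at 0.45. At basal mt-Co1 stood at 0.39 and mt-Nd3 at -2.30. With SA-line wild-type culture 1 left out, mt-Nd3 stood at -2.54 after KCl and -2.28 at basal, and mt-Rnr1 at 0.29 after KCl. The calls of members then changed too, as given in the last section. The line cannot be told apart from any batch that goes with it. Marker genes of other cells also differed between the lines. The summed level of 5 astrocyte markers was 383 to 481 CPM in SE-line libraries and 1622 to 2466 CPM in SA-line libraries, that of 6 neural progenitor markers 99.2 to 116 CPM and 477 to 1192 CPM, and that of 6 meningeal fibroblast markers 19.3 to 34.99 CPM and 94.6 to 220 CPM. The 9 neuron markers summed to 5052 to 5787 CPM in the SE line and 3257 to 5211 CPM in the SA line. These lists did not move as a whole. The progenitor marker Eomes was higher in the SE line, at 14.1 to 21.1 CPM against 1.47 to 3.11 CPM. The neuron marker Gad1 was lower in the SE line, at 45.3 to 74.6 CPM against 91.7 to 161 CPM. Gad2 was lower too, at 23.4 to 34.5 CPM against 47.6 to 92.0 CPM. The 5 markers each of the oligodendrocyte lineage, microglia and endothelial and mural cells summed to 64.4 to 68.7, 7.29 to 9.88 and 7.78 to 10.2 CPM in the SE line, and to 293 to 346, 26.6 to 33.7 and 22.6 to 71.7 CPM in the SA line. Mog of the oligodendrocyte lineage was instead higher in the SE line at basal, at 3.96 to 4.65 CPM against 2.19 to 3.44 CPM. After KCl it overlapped, at 2.66 to 4.08 CPM against 1.63 to 3.47 CPM. Pecam1 and Cldn5 of the endothelial and mural list overlapped between the lines. No marker of these lists was at 0 in all libraries of a line, and the part of these cells in the line differences was not tested.

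mt-Co3 and mt-Co1 were the protein genes called higher in the SE line at basal, and with copies added mt-Co2 joined them, so that all 3 complex IV genes of the mitochondrial genome were called higher. With its copy, mt-Co3 had 9978, 10062 and 10966 CPM in the SE line (SE culture 1, SE culture 2 and wild type), against 6958 and 7425 CPM in SA libraries and 7491 and 5905 CPM in their wild type. Every SE-line library exceeded every SA-line library, and the log2 fold change was 0.57 ± 0.11 (adjusted p = 0.00212). mt-Co2 with its copy had 9534, 8950 and 9762 CPM in the SE line, against 7158 and 7422 CPM in SA libraries and 6855 and 6282 CPM in their wild type. The groups did not overlap, with a log2 fold change of 0.44 ± 0.11 (adjusted p = 0.00805). As deposited, without the copy, mt-Co2 was not called, at -0.10 ± 0.17 (adjusted p = 0.647). mt-Co1 with its copy differed by 0.38 ± 0.12 (adjusted p = 0.0273), and as deposited by 0.35 ± 0.12 (adjusted p = 0.0384), a call kept in 13 of 23 alternatives.

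After KCl, the 4 protein genes called lower in the SE line were complex I genes. Others of that complex, mt-Nd1, mt-Nd4 and mt-Nd4l, were not called. With copies added these stood at -0.045, -0.28 and -0.21 on the log2 scale. mt-Atp6 of complex V, not called either, stood at -0.23. mt-Nd5 had 3297, 4148 and 4457 CPM in the SE line, against 7093 and 6643 CPM in SA libraries and 4599 and 7068 CPM in their wild type. The groups did not overlap, the nearest library being that of wild-type culture 1, and the log2 fold change was -0.68 ± 0.17 (adjusted p = 0.00761). mt-Nd6 fell by 0.50 and mt-Nd2 by 0.41 on the log2 scale (adjusted p = 0.0148 and 0.0368). With wild types alone the changes were -0.099 for mt-Nd6 (adjusted p = 0.771) and -0.12 for mt-Nd2 (adjusted p = 0.73), and for mt-Nd5 -0.39 (adjusted p = 0.297). Without the KCl library of SA-line wild-type culture 2, mt-Nd2 stood at -0.26 (adjusted p = 0.0918), and its call was kept in 12 of 23 alternatives. For mt-Nd6 the wild-type SE-line library, at 817 CPM, exceeded the lowest SA-line one, at 716 CPM, and mt-Nd2 likewise overlapped, at 3368 and 2958 CPM. With its copy added, mt-Co3 was called higher after KCl as well, at 0.29 ± 0.11 (adjusted p = 0.0495).

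mt-Nd3 was called lower in the SE line in both comparisons as deposited, and its copy changed that result. As deposited it had 29.9, 32.5 and 46.4 CPM in the SE line after KCl, against 253 and 198 CPM in SA libraries and 31.6 and 190 CPM in their wild type. The basal values were 52.9, 24.6 and 55.4 CPM in the SE line, against 190 and 234 CPM in SA libraries and 32.6 and 212 CPM in their wild type. In both cases SA-line wild-type culture 1 lay within the SE-line range. The log2 fold change was -2.15 ± 0.70 after KCl (adjusted p = 0.0282) and -1.88 ± 0.69 at basal (adjusted p = 0.0471). Without the SA-line wild-type culture 2 library of the same condition it was -1.25 after KCl (adjusted p = 0.095) and -0.93 at basal (adjusted p = 0.189), and the calls were kept in 17 and 9 of 23 alternatives. With Gm28438 added, it was -0.56 ± 0.16 after KCl (adjusted p = 0.0148) and -0.015 ± 0.16 at basal (adjusted p = 0.949). The summed pair had 282, 329 and 356 CPM in the SE line after KCl, against 546 and 545 CPM in SA libraries and 365 and 460 CPM in their wild type.

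**Figure D5:**
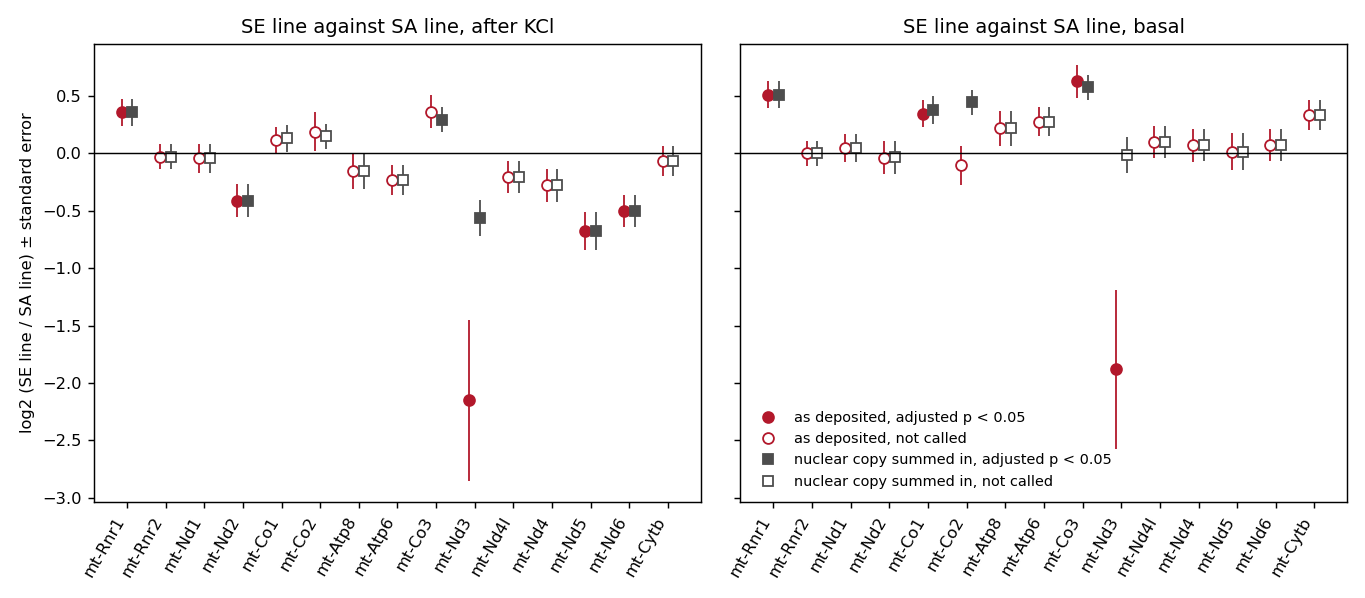
log2 fold change of the SE line over the SA line (vertical axis, with standard errors) after KCl (left) and at basal (right), for each protein and rRNA gene in the order of the genome, as deposited (red circles) and with the nuclear copy added (grey squares). Filled symbols have an adjusted p under 0.05. mt-Nd3 moves from -1.88 as deposited to -0.015 with its copy at basal, and mt-Co2 from -0.10 to 0.44.

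Of the rRNA genes, mt-Rnr1 differed between the lines and mt-Rnr2 did not pass the test. At basal mt-Rnr1 had 1129, 979 and 1153 CPM in the SE line, against 871 and 785 CPM in SA libraries and 725 and 678 CPM in their wild type. The groups did not overlap, and the log2 fold change was 0.51 ± 0.12 (adjusted p = 0.00562), a call kept in all 23 alternatives run for it. After KCl it had 864, 1007 and 1124 CPM in the SE line, against 1017 and 841 CPM in SA libraries and 588 and 709 CPM in their wild type. The groups then overlapped, and the log2 fold change was 0.36 ± 0.12 (adjusted p = 0.0292), a call kept in 17 of 23 alternatives (adjusted p up to 0.113). mt-Rnr2, which follows mt-Rnr1 on the same strand with mt-Tv between them, differed by -0.031 ± 0.11 after KCl and by 0.0011 ± 0.11 at basal.

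tRNA genes gave few counts, and most of those came from the minus strand. All 22 together had 495 to 981 counts in a library. The 8 minus-strand genes held 96.2% of the tRNA counts of all libraries, and 7 of them passed the filter on low counts. The 14 plus-strand genes held 3.84%, and mt-Tl1 was the only one to pass. A single gene, mt-Tp for the proline tRNA, held 70.9% to 84.7% of a library's tRNA counts. The 2 genes are shown because they are the most counted gene of each strand (mt-Tp at chrM:15356-15422, minus strand, and mt-Tl1, a leucine tRNA, at chrM:2676-2750, plus strand).
mt-Tp: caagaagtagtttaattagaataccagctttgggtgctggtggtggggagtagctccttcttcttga
mt-Tl1: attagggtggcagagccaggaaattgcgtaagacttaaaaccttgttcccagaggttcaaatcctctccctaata

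mt-Tp had 22.5, 21.5 and 27.8 CPM in the SE line after KCl, against 35.3, 24.8 and 36.0 CPM at basal, so that each culture was lower after KCl while the groups overlapped. In the SA line it had 28.0 and 21.2 CPM in SA libraries and 13.9 and 24.3 CPM in wild type after KCl, and at basal 26.4 and 22.1 CPM in SA libraries and 22.3 and 21.4 CPM in wild type. Its log2 fold change after KCl was -0.42 ± 0.21 in the SE line (adjusted p = 0.526) and -0.089 ± 0.18 in the SA line (adjusted p = 1.00). mt-Te (glutamate) and mt-Tc (cysteine), the next most counted, had 25 to 54 and 20 to 49 counts in a library, and mt-Tl1 had 8 to 22. Of the tRNA genes, 13 had 0 counts in at least 1 library, and mt-Ts2 had 0 counts in 13 of 14 libraries. A count of 0 allows up to 3. Counting by strand is not stated, so a read from the opposite strand cannot be told apart from one of the tRNA gene, and effective lengths were short (25.0 to 30.5 bases for mt-Tp).

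Nuclear genes for the same complexes were compared with the mitochondrial ones. Of 77 nuclear genes listed for complexes I to V, all tested, 49 rose and 0 fell in the SE line against the SA line after KCl (median log2 fold change 0.31), while 23.2% of all genes rose. At basal 64 rose and 0 fell (median 0.47), while 21.8% of all genes rose. Cox6a1 of complex IV was higher by 0.79 ± 0.09 after KCl (adjusted p = 0.000122) and by 0.89 ± 0.09 at basal (adjusted p = 5.94e-05), and Ndufb9 of complex I by 0.65 ± 0.08 (adjusted p = 0.000142) and 0.83 ± 0.08 (adjusted p = 3.66e-05). The nuclear complex IV list had the highest median of the 5 at basal, 0.65, with 11 of 12 genes higher. Among KCl comparisons, edgeR called 0 of the 77 in either line, DESeq2 called 0, and 1 in the SE line and 2 in the SA line had an unadjusted p under 0.05. Over the 17732 genes tested, 2041 in the SE line and 1427 in the SA line had one. The median of the 77 was -0.053 in the SE line and 0.081 in the SA line.

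A few nuclear genes for mitochondrial gene expression fell after KCl. Mterf1a, which encodes a factor that binds the mt-Tl1 gene downstream of the rRNA genes, had 0.812 to 1.47 CPM after KCl and 2.37 to 3.17 CPM at basal in the SE line, a log2 fold change of -1.38 ± 0.28 (adjusted p = 0.0276). In the SA line it had 0.666 to 1.53 CPM after KCl and 1.67 to 2.85 CPM at basal, a log2 fold change of -1.13 ± 0.24 (adjusted p = 0.0471). Neither overlapped, and reads shared with its close paralog Mterf1b may be split between them. Tefm, the mitochondrial transcription elongation factor, fell by 0.84 in the SE line (adjusted p = 0.0324), and Mrps2 and Mrpl44 of the mitochondrial ribosome fell by 0.42 and 0.60 there (adjusted p = 0.0202 and 0.0219). Mrps2 fell by 0.32 in the SA line too (adjusted p = 0.0479), and Mrm2, which methylates the large rRNA, fell by 0.63 in the SE line (adjusted p = 0.0493). These were 2 of 17 genes of transcription and replication, 1 of 29 of RNA processing and decay, and 2 of 79 ribosomal protein genes in the SE line, where 0.998% of all genes fell. Of 23 alternatives, the SE-line calls were kept in 17 for Mterf1a, 14 for Mrps2, 14 for Mrpl44, 11 for Tefm and 5 for Mrm2. The SA-line calls were kept in 10 for Mterf1a and 6 for Mrps2. Of 8 regulators of mitochondrial biogenesis, 0 were called after KCl in either line.

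Between the lines, the nuclear genes that act on mitochondrial DNA and RNA went both ways. Over all genes tested, 23.2% were higher and 26.8% lower in the SE line after KCl, and 21.8% and 26.0% at basal, and several counts that follow lie near or below these shares. Of 17 genes of transcription and replication, 3 were higher and 2 lower in the SE line after KCl, and likewise 3 and 2 at basal. Polrmt, the mitochondrial RNA polymerase, was higher by 0.57 ± 0.096 after KCl (adjusted p = 0.00103) and by 0.39 ± 0.097 at basal (adjusted p = 0.00874) on the log2 scale. Polg, the catalytic subunit of the mitochondrial DNA polymerase, fell by 0.40 after KCl (adjusted p = 0.00252) and by 0.59 at basal (adjusted p = 0.000303). Of 29 genes of RNA processing and decay, 10 were higher and 3 lower after KCl, and 8 and 3 at basal. Elac2, which cuts the 3′ ends of mitochondrial tRNAs, was higher by 0.51 ± 0.080 after KCl (adjusted p = 0.000628) and by 0.40 ± 0.080 at basal (adjusted p = 0.00278). Of the 8 biogenesis regulators, 2 were higher and 2 lower after KCl, and 2 and 1 at basal. Of 30 genes of the small mitochondrial ribosomal subunit, 12 were higher and 1 lower after KCl, and 13 and 1 at basal. Of 49 genes of the large subunit, 10 were higher and 5 lower after KCl, and 13 and 1 at basal.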

How the data were processed

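RNA was measured in 14 libraries, in 8 groups of 1 or 2. Per the submitters' processing notes, kallisto 0.43.1 and the build GRCm38 (mm10) were used. The authors deposited estimated counts and TPM per gene. RNA selection and strand are not given in the sources used here. The counts were rounded and fitted with edgeR 4.0.16 (R 4.3.3) by its quasi-likelihood test, with 8 group means, TMM factors (0.9192 to 1.103) and 6 residual degrees of freedom. Its filter on low counts kept 17732 genes. Adjusted p-values are Benjamini-Hochberg values over these genes, and calls have an adjusted p under 0.05. Averages over the SE line weight its 3 cultures equally. Alternatives were DESeq2 1.42.0, relative log expression size factors, scaling by nuclear genes, no filter, each line alone, replicate blocks, wild types alone, single libraries left out and, for shares, TPM or no rRNA genes. Adding nuclear copies and leaving out both libraries of a culture were chosen after seeing the data. Shares were tested with two-sided exact permutation tests. The edgeR fit was tested on simulated data. Named genes are the members and, of each nuclear list, up to 4 with the lowest p in a comparison described. The members and lists were chosen with earlier results of these data known. Sequences and coordinates are from GENCODE M21 transcripts (GRCm38), and copies were found by shared 31-base words. A floor of 3 counts covers counting error only.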

Additional observations from a re-analysis of the deposited data

How the results depend on the processing

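Counts below are of edgeR calls, and limits are few libraries, a single wild-type culture in the SE line and short tRNA genes with few counts. The replicate numbers did not pair SA with its wild type, as same-numbered deviations correlated at -0.408 (KCl) and -0.429 (basal). Between KCl and basal libraries they correlated at 0.647 in SA and 0.836 in its wild type but at -0.0996 in SE, so that the culture was not taken as paired throughout. Each value rests on 2 cultures, and one near 0 cannot show that pairing is absent. With the culture as a block, KCl calls over all genes were 1771 instead of 499 in the SE line and 1040 instead of 359 in the SA line, members called in the SE line were 3 instead of 0 (mt-Nd5, adjusted p = 0.00153, mt-Nd6, 0.0159, and mt-Atp6, 0.0324), the difference in response between lines had 1 member (mt-Nd5, adjusted p = 0.0333) and 146 genes instead of 0 and 27, and SE minus wild type had 2 genes instead of 0. With the number as a block, the line comparison at basal called 2 members instead of 4. Fitted alone, the SE line gave 7 members and 1638 genes for KCl, 31 genes for SE against wild type after KCl, 10 at basal and 4 for SE minus wild type, and the SA line gave 166 genes for KCl. DESeq2 called 1 member for KCl in the SE line, 126 genes for SA and 1 for SE against wild type after KCl, 1 for SE minus wild type and 66 for the difference between lines. Without the filter these were 1 member, 3 genes for SE after KCl and 56 for the difference between lines. With wild types alone, the lines differed in 1 member and 5495 genes after KCl (instead of 5 and 8871; protein median 0.071 instead of -0.21) and in 1 member and 5067 genes at basal (instead of 4 and 8483; median 0.33 instead of 0.075), and in 2 genes for the response. Without SE culture 1, KCl called 107 genes in the SE line and 173 in the SA line, the lines differed in 0 members and 5763 genes after KCl, in 2 members at basal and in 1 gene for the response. With SA-line wild-type culture 1 left out, KCl called 2 members in the SE line, the lines differed in 8 members after KCl and 8 at basal, and the median of SA minus wild type was -0.22 instead of 0.039. Leaving out single libraries gave 210 to 364 genes for KCl in the SA line, 226 to 517 genes and 0 to 1 members in the SE line, 0 to 1 genes for SA at basal, SA after KCl, SE after KCl and SE minus wild type, medians of 0.017 to 0.48 for SA after KCl, 1 to 6 members for the lines after KCl and 2 to 6 at basal, and 12 to 42 genes for their response. Of 23 alternatives, the line calls after KCl were kept in 12 for mt-Nd2, 17 for mt-Nd3, 20 for mt-Nd5, 20 for mt-Nd6 and 17 for mt-Rnr1, and those at basal in 13 for mt-Co1, 22 for mt-Co3, 9 for mt-Nd3 and 23 for mt-Rnr1. Fits of one line give no comparison between lines, and without a wild-type SE-line library there is no value for SE against wild type in that condition. The cause of these shifts was not tested.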
